A study of Saccharomyces cerevisiae with 3 samples.

Results

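The strains described here lack 1 of 8 genes of gene silencing and of chromosome ends in Saccharomyces cerevisiae, the budding yeast: SIR1, SIR2, SIR3, SIR4, YKU70, YKU80, RIF1 and RIF2. They were found by the gene symbol of each array probe, which gave 98 of 18794 named probes and 8 of 5325 named genes, and all 8 were among the 5204 strains that could be tested. The arrays came from a screen for genes that interact with CIN8, which encodes a mitotic kinesin motor. Heterozygous diploid deletion strains, pooled and each marked by a pair of DNA tags, received a cassette that put URA3 in place of CIN8, and the pool was sporulated. Haploids were then grown for 2 days either with 5-fluoroorotic acid (5-FOA), which kills cells with URA3 and left a pool of single mutants, or without uracil, which left a pool of double mutants that also lacked CIN8. On each of 3 arrays the single mutants' tags carried Cy5 and the double mutants' tags carried Cy3. Experiments 1, 2 and 3 differed in the 5-FOA percentage, at 0.1, 0.15 and 0.2. Each gene was represented by pooled cells of its deletion strain.

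The Sir proteins keep the silent mating-type loci HML and HMR, and genes near telomeres, switched off. Sir2 is a histone deacetylase that needs NAD, Sir3 and Sir4 bind to the deacetylated nucleosomes, and Sir1 helps to establish silencing at the silent mating-type loci. Ku, made of Yku70 and Yku80, binds DNA ends, serves end joining and protects telomeres. Rif1 and Rif2 bind Rap1 on telomere repeats and limit the action of telomerase. A haploid that cannot silence HML and HMR expresses the genes of both mating types and behaves like a non-mating diploid. In the published form of this screening method, haploids are selected through HIS3 under the a-specific MFA1 promoter, which is active in haploids of mating type a alone. The labels do not describe that marker, and both pools of an array were haploid pools, so that a ratio compares a strain between pools and does not hold its level in either. The part of mating-type silencing in the values below was not tested.

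Values are log2 ratios of the 2 channels of an array, after subtraction of the median of a tag set on an array, and ± gives the SD over the 3 arrays. The direction of the deposited ratio was not given in the sources used here. All 4 strains of uracil biosynthesis, each of which lacks a gene for making uracil, were positive, with a median of 5.01. Of these, URA4 had 1 empty value of 6 and an SD of 1.83. The double mutants were grown without uracil, so that a positive ratio likely stands for a lower share among them. The strain of KIP1, the kinesin gene most like CIN8, lay on the same side at 4.99 ± 0.50. The CIN8 strain itself lay on the other side at -2.23 ± 0.26, and the direction is not settled. Over all strains tested, the middle 50% of means lay between -0.68 and 0.35 and the median SD over arrays was 0.23. Without the centring, ratios were lower by 0.15 to 0.17.

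Of the 8 strains, RIF2 was called positive and SIR4 negative, and the other 6 did not pass the test. A strain was called where limma's adjusted p for its mean ratio against 0 was under 0.05. The 2 called strains are 25% of the 8, against 33.6% of all strains tested. All 8 had 12 or more spots. Of strains with so many spots, 44.4% were called where the median spot SD, within a tag and array, was under 0.5. Where it was 0.5 or more, 44.9% were called. Of all strains, 16.2% were called positive and 17.4% negative (842 and 906 strains, or 602 and 1261 without centring). The share among the silencing and telomere end strains was thus not above that background. A median of -0.20 over the 8 means lay beside -0.10 over all strains, and 2 of the 8 means were above 0.

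**Figure D1:**
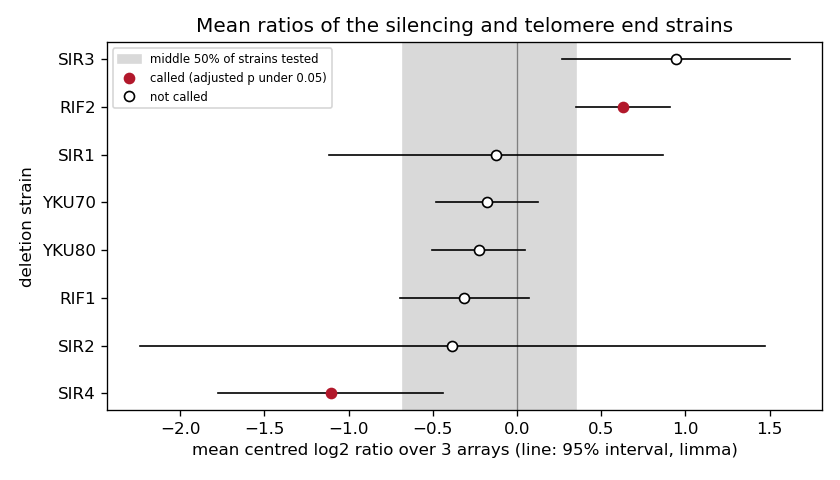
Mean centred log2 ratio of each deletion strain over 3 arrays (x axis; lines, 95% intervals from limma), with strains on the y axis in order of their means and the middle 50% of all strains tested in grey. RIF2 and SIR4, filled, were called, and SIR2 had the widest interval, from -2.24 to 1.47.

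The RIF2 strain had the most even spots of the 8. RIF2 encodes the Rap1-bound factor that restrains telomere elongation together with Rif1. Its ratios were 0.54, 0.73 and 0.62 in experiments 1, 2 and 3, and the mean of 0.63 ± 0.10 (SD, n = 3) is a 1.55-fold difference between channels. All 36 of its spot values were above 0. Limma gave an adjusted p of 0.0248, and both tags were called alone, tag set A at 0.54 and tag set B at 0.73 (adjusted p of 0.0310 and 0.0354). RIF2 was the 1 strain of the 8 called by both tags in the same direction, as were 16.9% of the 4293 strains measured by both. Its mean stood above 86.4% of all strains. The call was lost when any 1 experiment was left out (means of 0.58 to 0.68, adjusted p of 0.0982 to 0.111), as were those of all other strains. It was also lost with the 5-FOA percentage as a covariate, at the same mean and 1 residual degree of freedom fewer (adjusted p = 0.0728).

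RIF1 lay on the other side of 0 from RIF2, but its own difference from 0 was not called. RIF1 encodes a large Rap1-bound protein that also acts on replication timing. Its ratios were -0.38, -0.06 and -0.49, and the mean was -0.31 ± 0.22, with a 95% interval from -0.69 to 0.07 (adjusted p = 0.143). Its tags gave -0.30 and -0.32, among the closest pairs of tags in the set. RIF1 was lower than RIF2 in all 3 experiments, by -0.94 ± 0.16, and the ranges of these strains did not overlap. This pair was singled out among 28 after the values were seen, and an exact sign-flip test of its difference, two-sided, gave p = 0.25, the smallest that 3 arrays allow.

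The Ku strains stood close to 0 and to each other. YKU70 had ratios of -0.02, -0.27 and -0.24, with a mean of -0.18 ± 0.14 and a 95% interval from -0.48 to 0.13 (adjusted p = 0.246). YKU80 had -0.18, -0.17 and -0.33, with a mean of -0.23 ± 0.09 and an interval from -0.50 to 0.05 (adjusted p = 0.140). The strains of the 2 subunits differed by 0.05 ± 0.13, less than their own spread, and their ranges overlapped. For YKU80 the tags differed: tag set A gave 0.01 and tag set B -0.47. That gap of 0.48 was not called (adjusted p = 0.178). For YKU70 they gave -0.29 and -0.06.

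SIR4 had the lowest mean ratio of the 8. SIR4 encodes the scaffold that joins Sir2 and Sir3. Its ratios were -1.66, -0.85 and -0.81 in experiments 1, 2 and 3, and the mean was -1.11 ± 0.48 (SD, n = 3), a 2.15-fold difference, with an adjusted p of 0.0408. Of its 33 measured spot values, 29 were below 0. Tag set B was called at -0.97 (adjusted p = 0.0304). Tag set A gave -2.71, -0.43 and -0.58, with a mean of -1.24, and was not called (adjusted p = 0.157). The call also ended when the median replaced the mean over repeated spots (-0.92, adjusted p = 0.0669), with the 5-FOA percentage as a covariate (0.0602) and when any 1 experiment was left out (0.0841 to 0.112). The call held with the median over all spots of both tags (-0.82, adjusted p = 0.0157). It also held with the tag value closer to 0 on each array (-0.54, adjusted p = 0.0445). In that last setting SIR2 was lower, at -0.70, and was not called.

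SIR3 was positive on all arrays, but its tags did not follow each other from array to array. SIR3 encodes the nucleosome-binding protein that spreads along silent chromatin. Its ratios were 1.28, 1.16 and 0.39, and the mean was 0.94 ± 0.48, a 1.92-fold difference and the highest of the 8, above 93.2% of all strains. The adjusted p was 0.0547, so that SIR3 was not called, but it was 0.0347 among strains with both tags on all arrays. Tag set A gave 0.75, 1.90 and 0.52, highest in experiment 2. Tag set B gave 1.80, 0.42 and 0.25, highest in experiment 1. All 42 spot values were above 0, and the 7 spots of a tag stayed within 0.25 to 0.42 of each other on an array. The tags were thus each measured evenly and still differed by -1.05, 1.48 and 0.27 (A minus B) in the 3 experiments, and their mean difference of 0.23 was not called (adjusted p = 0.828). The SD of that difference over arrays was 1.27, against a median of 0.27 among 565 strains with even spots (a median spot SD under 0.25, a limit chosen after the values were seen). It was as high as in SIR3 or higher in 4.07% of these 565 strains and in 11.4% of all 4293 strains with both tags. SIR1, SIR2 and SIR4, with more uneven spots, had SDs of 1.30, 1.22 and 1.59.

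**Figure D2:**
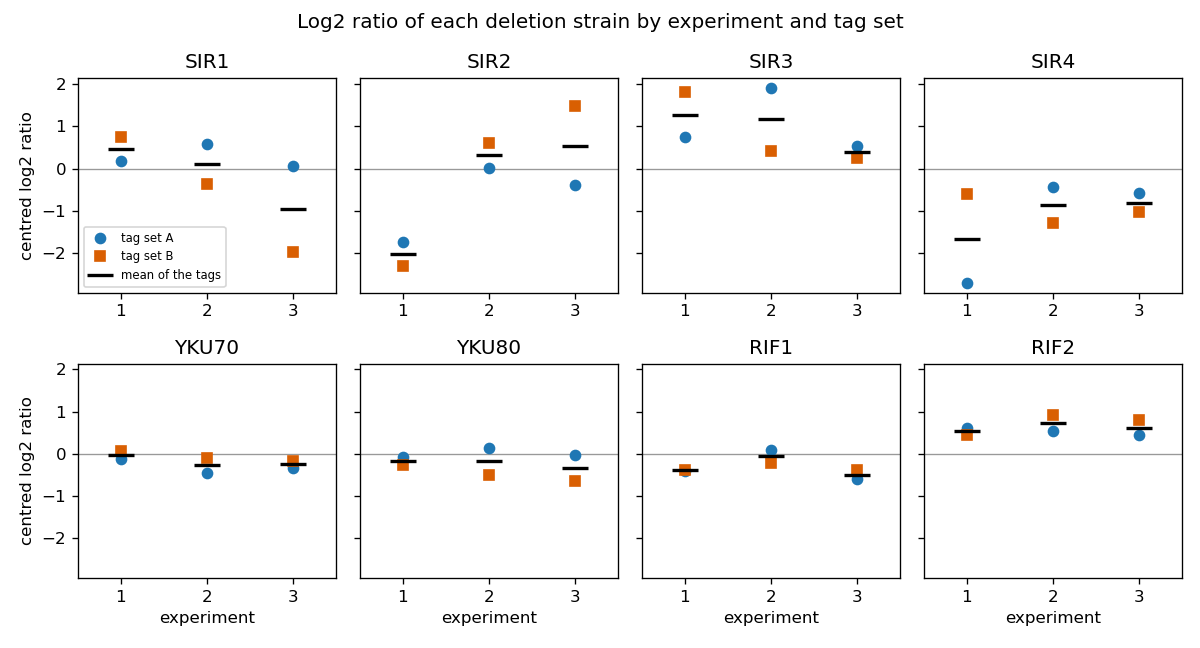
Centred log2 ratio (y axis) of the 8 deletion strains in experiments 1, 2 and 3 (x axis), with tag set A as circles, tag set B as squares and their mean as a bar. The RIF2 tags lie between 0.45 and 0.92, the SIR3 tags change order between experiments 1 and 2, and both SIR2 tags are lowest in experiment 1.

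SIR2 and SIR1 had no call and moved between arrays. SIR2, the deacetylase gene, had ratios of -2.02, 0.32 and 0.54. Both of its tags were low in experiment 1, at -1.73 and -2.30. The mean was -0.38 ± 1.42 (adjusted p = 0.649), and its SD over arrays was higher than that of 95% of strains. SIR1 had ratios of 0.46, 0.11 and -0.96, with a mean of -0.13 ± 0.74 (adjusted p = 0.779). Tag set A of SIR1 was positive in each experiment, at 0.18, 0.58 and 0.06. Tag set B gave 0.75, -0.36 and -1.97. The sign of the SIR1 mean thus rests on tag set B, and tag set A alone gave 0.27 (adjusted p = 0.226).

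The spots behind these means were uneven for some SIR strains and even for the others. All 8 strains had repeated spots, 7 per tag for SIR3 and 6 per tag for the others, as did 14.9% of named genes (793 strains with 12 or more spots). Over these 793 strains the median of the spot SD, taken within a tag and array, was 0.13. The SIR2 strain had a median spot SD of 1.23, higher than 97.7% of them, and SIR4 had 0.95, higher than 94.5%. A median spot SD of 0.5 or more, a limit chosen after the values were seen, occurred in 14.9% of the 793 strains. For SIR2 in experiment 3, the measured spots of tag set B alone ran from -0.47 to 4.93. For SIR4 in experiment 1, tag set A rested on 3 spots between -5.46 and -0.29. SIR1 was split by tag: the spot SD was 0.18 to 0.21 in tag set A, and reached 2.13 in tag set B. In RIF2, RIF1, YKU80 and SIR3 the median spot SD was 0.07 to 0.10, and in YKU70 it was 0.14.

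Missing values followed the same strains. SIR2 had 7 empty values of 36, SIR1 had 6 and SIR4 had 3, while YKU70, YKU80, RIF1, RIF2 and SIR3 had 0, as did 71.6% of the 793 strains. All 6 empty values of SIR1 were in tag set B. SIR2 also held 1 value at the placeholder ratio of 999999, which was left out, in tag set B of experiment 2. Such a value occurred in 1.64% of the 793 strains. With the placeholder kept, the SIR2 mean changed sign, to 0.43 (adjusted p = 0.764). None of the 8 strains had a value at the lowest deposited ratio, 0.01. The files used here hold no intensities, and whether dim spots underlie the uneven values was not tested. Among the strains with repeated spots, 44.9% of those with a median spot SD of 0.5 or more were called, and 44.4% of the others.

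**Figure D3:**
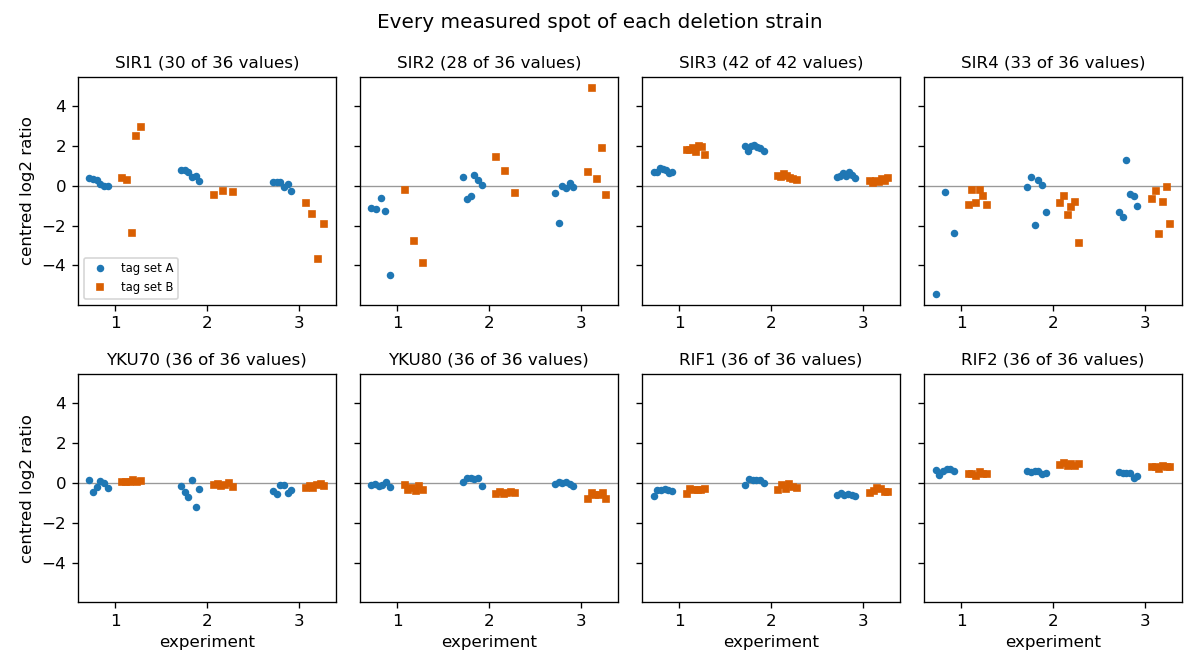
Every measured spot of the 8 deletion strains as a centred log2 ratio (y axis) by experiment (x axis), with tag set A as circles and tag set B as squares, offset for view. Spots of SIR2, SIR4 and of tag set B of SIR1 scatter widely, while those of SIR3 form narrow groups at different heights.

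In the order of their means, the strains ran SIR3, RIF2, SIR1, YKU70, YKU80, RIF1, SIR2 and SIR4. Of the 7 steps between neighbours in that order, the ranges over arrays were apart in 1, between RIF2 and SIR1 (0.76 ± 0.76). SIR3 and SIR4, whose proteins work in 1 complex, were 2.05 ± 0.87 apart, with SIR3 higher in all 3 experiments. They hold the highest and the lowest mean, so that this is the widest gap among the 28 pairs. An exact two-sided sign-flip test of it gave p = 0.25, the smallest that 3 arrays allow. SIR2 was lower than SIR3 in 2 of 3 experiments, by -1.33 ± 1.77.

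A difference between the tags themselves was called in 0 of the 8 strains, against 7.22% of the 4293 strains with both tags, by limma. The unadjusted p was under 0.05 in 1 of the 8, YKU80 (0.0464), and in 26.8% of the 4293 strains. SIR3, SIR4 and RIF2 had both tags on the same side of 0 in every experiment.

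No strain of the 8 showed a called trend over the 5-FOA percentage, and 0% of all strains did. The smallest adjusted p over all strains was 0.926. Before adjustment, 263 of the 5204 strains fell under 0.05. SIR1 had a slope of -1.42 per 0.1% with an unadjusted p of 0.0431 (limma, adjusted p = 0.978), and it was the 1 strain of the 8 under 0.05. Only tag set B of SIR1 fell at each step (0.75, -0.36 and -1.97), while tag set A gave 0.18, 0.58 and 0.06. Each percentage was used in 1 experiment, so that percentage and experiment cannot be told apart.

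Genes that work with the Sir, Ku and Rif proteins were taken as 6 lists of 64 genes, of which 56 were tested. Of these, 18 were called, or 32.1%, with 8 positive and 10 negative, close to the background of 33.6%. Over all strains tested, 16.2% were called positive and 17.4% negative, and no list was tested as a set. Larger ratios than in the 8 strains themselves were found on both sides.

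Among silencing cofactors, 4 of 16 were called positive and 3 negative, against 16.2% and 17.4% of all strains. The list's median was -0.24. Both tags gave the call in 5 of the 16, all among the 7 called, against 16.9% of the 4293 strains measured by both. ARD1 and NAT1 encode the catalytic and the ribosome-binding subunit of the N-terminal acetyltransferase NatA, which also modifies Sir3. The ARD1 strain stood at 4.24 ± 0.32 and the NAT1 strain at 2.49 ± 0.12 (adjusted p of 0.00856 each). SAS2, a histone H4 acetyltransferase that sets the border of silent chromatin, stood at 1.40 ± 0.35. RLF2, the large subunit of the chromatin assembly factor CAF-1, was the lowest at -3.13 ± 0.09, with tags at -4.83 and -1.43. Of its 36 spot values, 6 were empty. In the list of the Sir2 family, NAD supply and the Sum1 repressor, HST2, a Sir2 relative, was called positive at 0.75 ± 0.12, and the other 7 strains were not called. The closest Sir2 relative, HST1, stood at 0.10 ± 0.31 (adjusted p = 0.648).

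Strains of rDNA silencing and nucleolar tethers were called positive in 3 of 6 cases and negative in 1, with a median of 0.64. The shares over all strains were 16.2% positive and 17.4% negative. TOF2, a nucleolar partner of the Cdc14 phosphatase, stood at 2.60 ± 0.05. It was the 1 strain of the list called by both tags, against 16.9% of the 4293 strains measured by both. CSM1, of the complex that ties rDNA to the nuclear envelope and joins sister kinetochores in meiosis, stood at 2.35 ± 0.78. FOB1, the replication fork block protein, stood at 0.85 ± 0.23, and NET1, the anchor of Cdc14 and Sir2 in the nucleolus, at -0.48 ± 0.11.

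Strains of telomerase and telomere length were called negative in 4 of 14 cases and positive in 0, with a median of -0.25. Over all strains, 17.4% were called negative and 16.2% positive. In this list, 2 strains were called by both tags, against 16.9% of the 4293 strains measured by both. EST3, a telomerase subunit, stood at -1.35 ± 0.22, with 5 empty values of 36. Its partners EST1 (0.10 ± 0.14) and EST2 (0.30 ± 0.08) were not called. RRM3, a helicase for hard-to-replicate sites, stood at -0.63 ± 0.19. MRE11, the nuclease of the complex that processes ends, stood at -0.80 ± 0.28, with tags at -1.72 and 0.11 and 2 empty values of 36. STN1, an essential gene of telomere capping, stood at -1.64 ± 0.76, with 1 empty value of 6 and tag set B at -1.14. Both pools were haploid, and whether the STN1 ratio stands for growing cells was not tested. The same holds for any other essential gene in the lists, and such strains stayed in the counts and medians. Of the 4 end joining partners of Ku, NEJ1 was called at -0.76 ± 0.08, and DNL4, the DNA ligase of that pathway, stood at -0.15 ± 0.10 (adjusted p = 0.276). Of 8 a-specific and mating genes, BAR1, a protease that degrades alpha-factor, was called at -0.90 ± 0.20, with tags at -1.70 and -0.11. MFA1, whose promoter drives the haploid marker in the published form of the method, stood at 0.10 ± 0.20 (adjusted p = 0.542). The median of that list was -0.48.

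**Figure D4:**
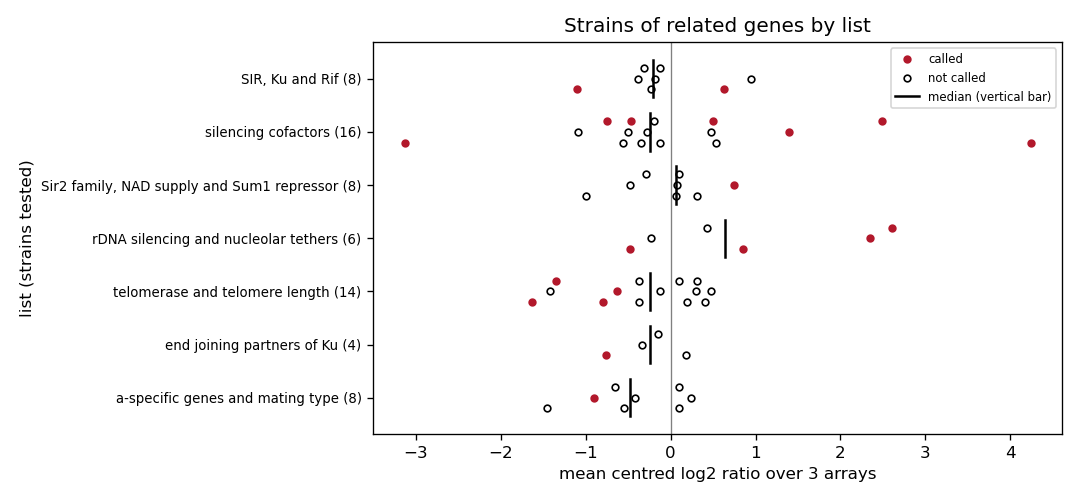
Mean centred log2 ratio over 3 arrays (x axis) of each strain tested, by list (y axis, number of strains in brackets), with called strains filled and a vertical bar at each list's median. The medians lie between -0.48 and 0.64, and single strains of the silencing cofactors reach -3.13 and 4.24.

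Strains that lack a gene next to 1 of the 8 were compared, using the neighbours in the R64 annotation. No protein-coding gene in it overlapped any of the 8. Of 16 neighbours, 14 were tested, 4 were called positive and 0 negative, or 28.6% called against 33.6% of all strains. NAT1 lies next to SIR2 and RIT1, a tRNA modifying enzyme gene, next to YKU70, where RIT1 stood at 1.30 ± 0.16 and YKU70 at -0.18. FMP27 lies next to RIF2, and at 0.55 ± 0.06 (adjusted p = 0.0267) its ratio was near that of RIF2, while SST2 on the other side stood at -0.35 ± 0.59 and was not called. PPS1, next to RIF1, stood at 0.53 ± 0.15. The neighbours of SIR4, ADK1 (-1.08 ± 0.92) and PCF11 (-1.13 ± 0.60), had means near that of SIR4 but were not called (adjusted p of 0.126 and 0.0563). As with STN1, whether the ratio of an essential gene among the neighbours stands for growing cells was not tested.

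The strains with values most like those of SIR4, the called strain with the larger absolute mean, were RRT12, TFB1 and REF2. Likeness was the root mean square distance over 6 values (2 tags on 3 arrays), which was 0.38 for RRT12, 0.48 for TFB1 and 0.49 for REF2. Of these, REF2 was called, at -1.28 ± 0.45, while RRT12 and TFB1 were not (limma, adjusted p of 0.0623 and 0.119). Essential genes were not left out of this search, and whether the ratio of such a strain stands for growing cells was not tested.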

How the data were processed

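The authors deposited 1 log2 ratio per probe and array, from images read with GenePix 5.1, per the labels. The formula, filters and normalization are not given in the sources used here. A pool of tags from genomic DNA was hybridized, although the sample records name RNA. Probes were named through the platform annotation, and 5321 of 5325 genes matched the RefSeq table of R64. Probes 10971 identifiers apart named the same gene and were taken as tag sets A and B. The 36 values at a ratio of 999999 were left out. Values were centred on the median per array and tag set, averaged over spots per tag and over tags per strain, and tested against 0 with limma 3.58.1 in R 4.3.3 (lmFit, eBayes, two-sided, Benjamini-Hochberg over 5204 strains). The same fit was run on each tag set, on the tag difference and on the slope over 5-FOA. With 3 arrays and 2 residual degrees of freedom, the number of arrays limits the precision, and p-values cover only the scatter over these arrays. The 5-FOA percentage differed between arrays, so that the single mutants of each array were selected apart. The labels do not say whether the double mutants or the sporulated pools were separate cultures, and how far the arrays are independent is not known. The fit was run on simulated data to check that means and signs were returned, and no rate of false calls is given here.

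The 8 genes, the lists and the tests were chosen with earlier results of these data known. Named were the 8 strains, up to 4 called strains per list with the largest absolute means, neighbouring genes and the 3 strains most like SIR4. HST1, EST1, EST2, DNL4 and MFA1 were named after their values were seen. Tables and plots used pandas 2.3.3 and matplotlib 3.10.9 in Python 3.11.15. No sequences of tags or proteins were used here.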

Additional observations from a re-analysis of the deposited data

How the results depend on the processing

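Settings were changed 1 at a time; keeping the placeholders and the median over all spots of both tags were added after seeing the data. Leaving out experiment 1, 2 or 3 gave 0 to 0 calls among the 8 strains, among the listed strains and among all strains (1885 to 1989 of all strains had an unadjusted p under 0.05), since only 2 arrays were then tested. A covariate for 5-FOA, which leaves 1 residual degree of freedom, gave fewer calls: 0 of the 8, 4 listed strains and 228 of all strains. With the tag value closer to 0, 751 of all strains and 7 listed strains were called. Tag set A alone called 1 of the 8, as did the median of repeated spots (1), RIF2 each time, and both tags on all arrays 3. Signs turned in strains that were not called. SIR1 gave 0.27 in tag set A and 0.19 as a median over all spots, and -0.42 to 0.29 without 1 experiment. SIR2 gave 0.43 with the placeholder kept and -0.85 to 0.43 without 1 experiment. YKU80 gave 0.013 in tag set A and 0.013 with the tag closer to 0. The cause was not tested. RIF1, RIF2, SIR3, SIR4 and YKU70 kept their sign in all settings. No paired analysis was possible because no second group of samples shares replicate numbers with these arrays; both pools lie on the same array, so that each ratio is already within an array.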
